A study of Papio anubis and Macaca mulatta with 6 samples.

Results

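INSL3 (insulin-like 3) and the relaxin family receptors RXFP1 and RXFP2 were followed through the single-cell RNA-seq of prepubertal primate testes. These 3 genes were chosen by their symbols alone, and all 3 were found among the 34178 genes listed in the baboon and the 21356 listed in the rhesus monkey. The testes of 2 baboons and 2 rhesus monkeys had been profiled with the 10x Genomics 3′ assay, which counts unique molecular identifiers (UMIs), ideally 1 for each captured RNA molecule. Baboon animal 1 gave the libraries 1A and 1B and baboon animal 2 gave library 2, while rhesus animal 1 gave library 1 and rhesus animal 2 gave the libraries 2A and 2B. Library 2 of the baboon was made with version 3 of the chemistry and the others with version 2. No treatment or genetic change is stated for any animal, and the animals had been euthanized for another purpose. The testes, taken at necropsy, were digested with enzymes in 2 steps, with a wash meant to take away interstitial cells. The deposited design text gives ages of 15 and 20 months for the baboons and of newborn and 26 months for the rhesus monkeys. The published account assigns these ages the other way round, and no source ties an age to an animal, so age was not used.

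INSL3 is a small peptide hormone of the insulin and relaxin family that Leydig cells, the steroid-producing cells of the testis interstitium, secrete. RXFP2, a G protein-coupled receptor of the gubernaculum and of germ cells, binds INSL3, and the pair drives the descent of the testis before birth. RXFP1 is the related receptor of relaxin, and both receptors act mainly by raising cyclic AMP in the cell. Each species was analysed alone, because the gene annotations differ between them.

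In the rhesus files, INSL3 is the gene ENSMMUG00000042375. RefSeq places it on the minus strand of Mmul_10 at chr19:17335433-17340843, with 2 exons. RXFP1 (ENSMMUG00000004647) lies on the plus strand at chr5:156135710-156260414, and RXFP2 (ENSMMUG00000003898) on the plus strand at chr17:10722739-10793554. In the baboon build Panubis1.0 the genes are at chr20:34288970-34294446 (INSL3), chr3:30733826-30864824 (RXFP1) and chr15:10473570-10686215 (RXFP2). Because the assay reads the 3′ end of an RNA, the annotated end of a gene bears on its count. The rhesus INSL3 model of RefSeq has 342 bases after the stop codon and the RXFP1 models have 549 or 1320, whereas the RXFP2 model of 19 exons has 0. These are the models of RefSeq and not those against which the reads were counted.

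The 250 bases before the annotated start of rhesus INSL3 (RefSeq, Mmul_10, chr19:17340844-17341093, minus strand, printed 5′ to 3′) are shown because INSL3 was the member with most UMIs and because genes known to act on its promoter were measured in the same cells. Capitals mark the TATAAA box and 2 copies of CAAGGCC, a letter string picked after the window had been read:
INSL3 promoter: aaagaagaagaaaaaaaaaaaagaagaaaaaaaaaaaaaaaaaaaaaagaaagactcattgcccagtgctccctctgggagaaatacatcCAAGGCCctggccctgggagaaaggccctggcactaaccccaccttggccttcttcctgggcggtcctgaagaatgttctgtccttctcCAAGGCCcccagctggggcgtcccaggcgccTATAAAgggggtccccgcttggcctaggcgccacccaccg
The TATAAA string was present on either strand in 2090 of 21107 promoters of protein-coding genes of the same length (9.90%), and CAAGGCC in 1002 (4.75%). AAGGTCA, part of the known binding strings of the nuclear receptors NR5A1 and NR4A1, and the shorter AGGTCA that it contains were not found in this window, and were present in 677 (3.21%) and 2737 (13.0%) of those promoters. Other variants of the binding strings were not searched, so the window is not shown to lack sites of these receptors.

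The libraries held between 16875294 and 49803025 UMIs, and 23057 baboon and 26473 rhesus cells were called, with median depths of 1445 to 2743 UMIs per cell in a library. Clusters were named from marker lists that hold none of the members, and INSL3, RXFP1 and RXFP2 were taken out of the genes used for clustering. The rhesus cells comprised 13019 stroma-like, 8241 Sertoli-like, 751 endothelial-like, 736 Leydig-like and 578 germ-like cells, besides 406 cells named pericyte-like, 99 named peritubular myoid-like and 208 named macrophage-like, with the clusters 4 (2377 cells, led by HAPLN1, WFDC1 and TGFBI) and 14 (58 cells) left unnamed. The baboon cells comprised 17412 Sertoli-like and 4693 stroma-like cells and far fewer germ-like (305), endothelial-like (352), macrophage-like (118) and pericyte-like cells (177), and no baboon cluster met the naming rule for Leydig cells. Of the 10 genes of the Leydig list, 7 were found by symbol in the baboon, without CYP11A1, CYP17A1 and HSD3B1. The published account names baboon Leydig cells by IGF1, INSL3 and STAR, of which IGF1 stood on the stroma list here. The lack of a named cluster thus does not show that Leydig cells were absent. Baboon library 2 differed in that 5714 of its 7919 cells passed only through the comparison of their profile with free RNA. The libraries 1A and 1B shared 67 cell barcodes (72.3 expected by their numbers) and the libraries 2A and 2B shared 109 (79.3 expected).

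INSL3 RNA in the rhesus testis lay mostly in the 736 Leydig-like cells. Its level there was 38443 CPM (counts-per-million, the UMIs of a gene scaled to a common total) in animal 1 (46140 of 1200215 UMIs) and 22317 CPM in animal 2 (23739 of 1063726 UMIs), a mean of 30380 ± 11403 (SD, n = 2 animals). By library, the level in these cells was 38443 CPM in library 1, 19180 in 2A and 25420 in 2B. The lowest of these libraries thus lay above every other class in every animal, of which the highest was unnamed cluster 4 of animal 1 at 1526 CPM. The Leydig-like cells held 5.46% (animal 1) and 3.96% (animal 2) of the UMIs of all cells but 84.0% and 93.6% of their INSL3 UMIs. Over both animals they held 69879 of 80288 INSL3 UMIs, a share of 87.0% (exact 95% interval 86.8 to 87.3, counting error only). In the sum of all other cells INSL3 stood at 423 CPM in animal 1 and 62.5 CPM in animal 2, which is 90.9 times and 357 times lower.

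Below the Leydig-like cells, rhesus classes that were neighbours in the order of the means overlapped between the animals. Unnamed cluster 4 had 811 ± 1011 CPM (SD, n = 2), with 1526 in animal 1 and 95.6 in animal 2. Pericyte-like cells had 438 ± 371 CPM, macrophage-like cells 398 ± 503, germ-like cells 233 ± 37.4, stroma-like cells 188 ± 194, Sertoli-like cells 170 ± 155 and endothelial-like cells 129 ± 132. The lowest means were those of unnamed cluster 14 (87.4 ± 98.6 CPM) and of the peritubular myoid-like cells (71.5 ± 23.5 CPM). All 9 of these classes had more INSL3 in animal 1 than in animal 2. Classes farther apart in the order could be free of overlap, such as germ-like (207 to 260 CPM) and peritubular myoid-like cells (54.9 to 88.1 CPM). Within each animal, unnamed cluster 4 (1526 and 95.6 CPM) and the pericyte-like cells (700 and 176 CPM) lay above the Sertoli-like (280 and 60.7), stroma-like (326 and 51.2) and endothelial-like cells (223 and 35.8). The pericyte-like level rested on few cells. In animal 1, 4 of 138 cells held 70.1% of its INSL3 UMIs, and in animal 2, 2 of 268 cells held 60.5%. Of these cells, 1 in each animal was marked as a doublet. Within animal 2 the germ-like cells differed between the libraries, with 339 CPM in 2A and 28.0 CPM in 2B. A single germ-like cell of library 2A that was marked as a doublet held 106 of the 121 germ-like INSL3 UMIs of that animal.

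**Figure D1:**
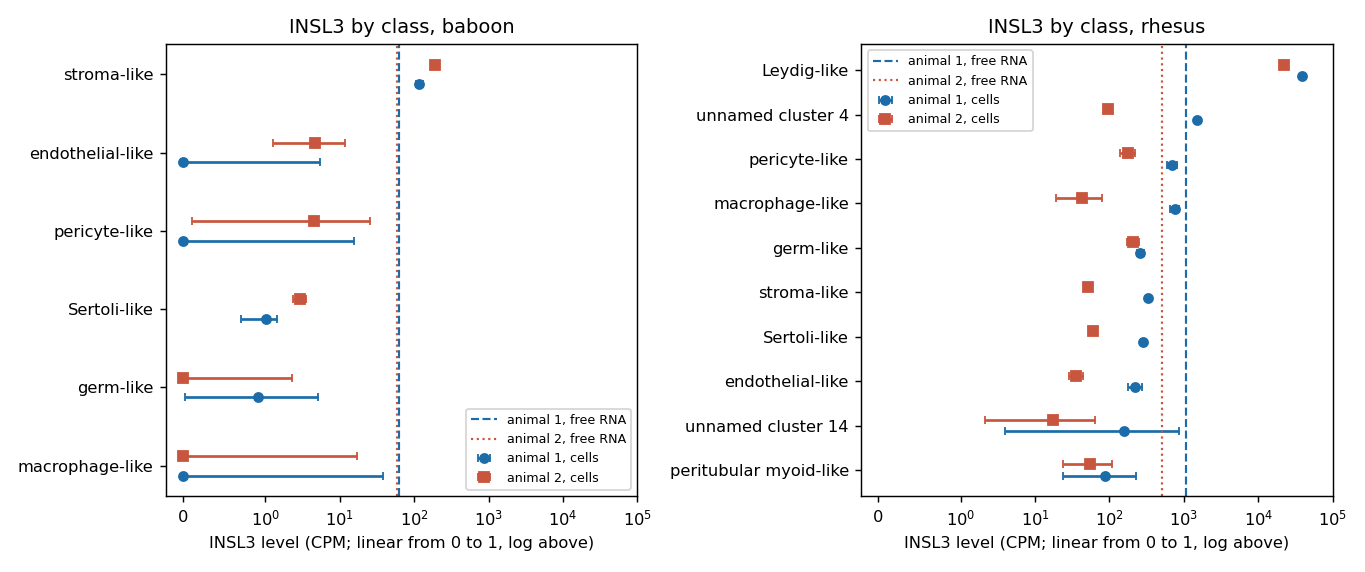
INSL3 in CPM (horizontal axis, linear from 0 to 1 and logarithmic above) by class of cells, with 1 point for each animal and exact 95% Poisson intervals that cover counting error only. The vertical lines give the level in the free RNA of animal 1 (dashed) and animal 2 (dotted). The rhesus Leydig-like cells, at 38443 and 22317 CPM, and the baboon stroma-like cells, at 117 and 188 CPM, stand apart from the other classes of their species.

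For the test, UMIs were summed for each animal and class, and the sums of a class were compared with the equally weighted mean of the other classes by the quasi-likelihood test of edgeR, with Benjamini-Hochberg adjustment over all genes tested. INSL3 was higher in the rhesus Leydig-like cells by 7.52 ± 0.71 (SE) on the log2 scale, with an adjusted p of 2.26e-05 (n = 2 animals, higher in both), against means of the other classes of 519 CPM in animal 1 and 90.3 CPM in animal 2. In this comparison 460 of 10770 genes, or 4.27%, passed the threshold of 0.05, 417 of them higher (3.87%) and 43 lower (0.399%). With the animal as a block, the count of genes was 906 and the difference in INSL3 was 8.05. The naming rule had been carried over from an earlier pass over these data in which INSL3 was seen in the Leydig-like cluster, so the p-value is no independent evidence for the name. In single-cell sums a lower level can mean fewer cells with the RNA or less RNA in each, and the values for single cells are described below.

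Single Leydig-like cells of the rhesus monkeys differed widely in INSL3. In animal 1 the median of 362 cells was 82 UMIs and the highest 779, with 46 cells at 0, 22 cells at 1 to 9 and 294 cells (81.2%) at 10 or more. In animal 2 the median of 374 cells was 1 UMI and the highest 1084, with 176 cells at 0, 44 cells at 1 to 9 and 154 cells (41.2%) at 10 or more. Few cells lay between none and many, and the cells with 10 or more UMIs held 99.9% and 99.5% of the INSL3 UMIs of the class. Among those cells the median was 119.5 UMIs in animal 1 and 89 UMIs in animal 2, and INSL3 made up to 26.3% and 14.5% of all UMIs of a cell. The lower Leydig-like level of animal 2 thus went with a smaller share of cells at 10 or more UMIs and with a lower median in those cells. These medians are not scaled to depth, and the cells were deeper in animal 2 (median depths of 3209 UMIs in animal 1 and 4869 in animal 2). The parts of the 2 in the lower level were not set apart.

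The share of Leydig-like cells with at least 1 INSL3 UMI was 87.3% in animal 1 and 52.9% in animal 2 (median depths 2592 and 1610 UMIs). Thinned to 1000 UMIs a cell, which left out 8 and 87 cells, the shares were 85.9% and 56.8%. Sertoli-like cells had shares of 20.3% and 9.18% at median depths of 1600 and 1681 UMIs, or 12.2% and 5.13% after thinning. Stroma-like cells had 17.5% and 5.95%, and endothelial-like cells 14.3% and 9.98%. The shares in the Leydig-like cells lay above those of these other classes in both animals, and the source of INSL3 in the other classes was not tested.

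**Figure D2:**
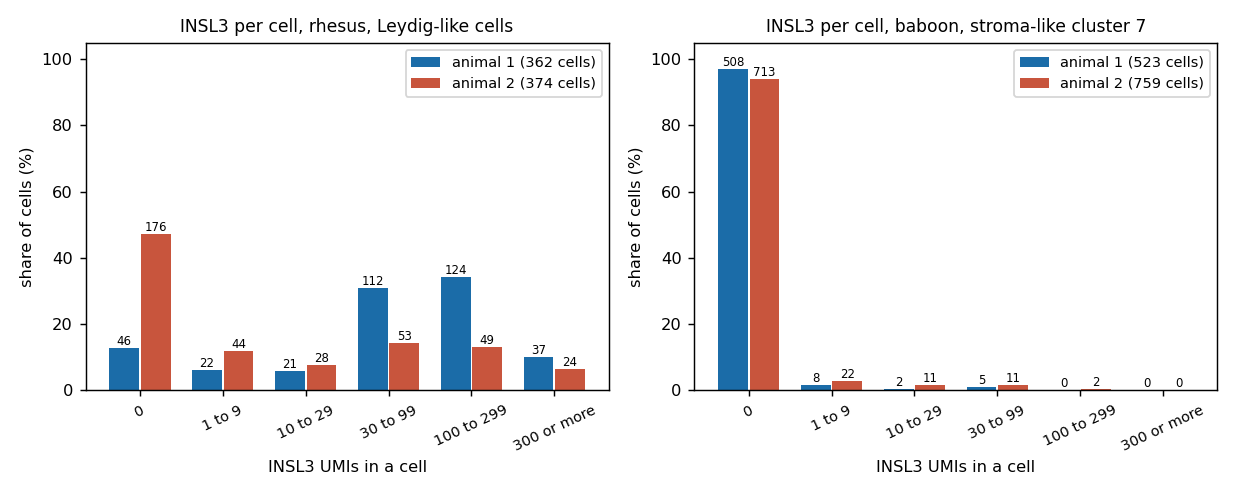
Share of cells (vertical axis, percent) by the number of INSL3 UMIs in the cell (horizontal axis, bins), for the rhesus Leydig-like cells and for baboon stroma-like cluster 7, with 1 bar for each animal and the number of cells above it. The rhesus cells pile up at 0 and at 30 or more UMIs, with 46 and 176 cells at 0, whereas most baboon cells are at 0.

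Outside the Leydig-like class, cells with 10 or more INSL3 UMIs were few. Rhesus animal 1 had 119 such cells among 10806, and they held 67.7% of the 8794 INSL3 UMIs outside the class. Doublets were marked in 32 of these 119 cells (26.9%), against 31 of the 294 Leydig-like cells of animal 1 with 10 or more. Rhesus animal 2 had 12 such cells among 14931, of which 4 were marked as doublets, with 18.6% of 1615 UMIs. Unnamed cluster 4 of animal 1 held 3026 INSL3 UMIs, and 33 of its 948 cells, 9 of them marked as doublets, held 88.9% of these. The part of doublets in these levels was not tested beyond leaving the marked cells out, with which the Leydig-like cells remained higher by 8.09 on the log2 scale.

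Fewer INSL3 UMIs were counted in the baboon cells than in the rhesus cells. Gene annotation and part of the chemistry differ too, so no species difference is read from this. Baboon INSL3 was found mainly in the stroma-like cells. This class was used in the comparison because no baboon cluster was named Leydig-like. The stroma-like level was 117 CPM in animal 1 (319 UMIs) and 188 CPM in animal 2 (1117 UMIs), a mean of 153 ± 50.1 (SD, n = 2), with 104 CPM in library 1A, 141 in 1B and 188 in 2. Endothelial-like cells had 0 and 4.63 CPM, pericyte-like cells 0 and 4.56, Sertoli-like cells 1.03 and 2.92, germ-like cells 0.907 and 0, and macrophage-like cells 0 in both animals. The stroma-like cells did not overlap with any other class, while the endothelial-like, pericyte-like and Sertoli-like cells overlapped with each other. With 7.58% and 13.7% of all UMIs of the cells, the stroma-like class held 90.6% of 352 INSL3 UMIs in animal 1 and 91.3% of 1223 in animal 2.

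The difference in the baboon was 8.08 ± 0.60 (SE) on the log2 scale, with an adjusted p of 4.08e-05 by the quasi-likelihood test of edgeR (n = 2 animals, higher in both). Of 12374 genes, 1472 (11.9%) passed in this comparison, 8.53% higher and 3.36% lower, and 3039 passed with the animal as a block, where the difference in INSL3 was 8.19. Macrophage-like cells were at 0 UMIs and other classes near 0, so the fitted difference depends on the prior count of the fit and is no bound on the fold. At such levels INSL3 passed the filter on low counts through the stroma-like sums alone, so the p-value is no independent support for the direction. The plain ratio to all other cells was 118 in animal 1 (0.994 CPM in the others) and 66.6 in animal 2 (2.82 CPM).

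Within the stroma-like class, INSL3 lay in 1 of the 2 clusters. Cluster 7 (1282 cells, led by DLK1, COL15A1 and STC1) had 403 CPM in animal 1 and 539 CPM in animal 2, whereas cluster 1 (3411 cells, led by IGFBP3 and C7) had 4.10 and 2.57 CPM. In cluster 7, 15 of 523 cells of animal 1 and 46 of 759 cells of animal 2 had at least 1 INSL3 UMI. Only 7 and 24 of these cells had 10 or more UMIs, but they held 95.2% and 93.6% of the INSL3 of the cluster. Their medians were 38 and 40 UMIs and their highest counts 80 and 125, at most 4.04% and 2.61% of the UMIs of a cell. Most cells of the cluster had none. Of all stroma-like cells, 1.05% and 1.84% had an INSL3 UMI, against 0.132% and 0.726% of the Sertoli-like cells. In the baboon clusters named Leydig-like at other resolutions INSL3 did not pass the test of edgeR, with differences of 2.56 ± 1.31 (SE) at resolution 0.3 (adjusted p = 0.224) and -0.83 ± 53.33 at resolution 0.8 (adjusted p = 1.000). Their name was close to a tie, with Leydig scores of 0.680 and 0.748 against Sertoli scores of 0.670 and 0.736 and 0 Leydig markers among their 10 leading genes, so these values say little of Leydig cells.

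Free RNA, which floats in the cell suspension and enters every droplet, was read from barcodes of fewer than 100 UMIs. In the rhesus libraries 1, 2A and 2B, INSL3 stood at 1061, 428 and 583 CPM there (1914, 1359 and 2048 UMIs), a mean of 691 ± 330 (SD, n = 3 libraries). In the baboon libraries 1A, 1B and 2 it stood at 74.0, 37.3 and 59.6 CPM (270, 68 and 147 UMIs), a mean of 57.0 ± 18.5. All 6 libraries had INSL3 in their free RNA, at higher values in the rhesus libraries, from which no species difference is read. Set against the level over all cells of the same library, the rhesus free RNA was at 0.425, 0.546 and 0.522 times the level in cells, and the baboon free RNA at 8.59, 3.16 and 2.12 times. Baboon INSL3 thus took a larger share of the free RNA than of the RNA in cells in each library, and rhesus INSL3 a smaller one.

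Counts in each class were then set beside the number that the same total of UMIs would hold at the free RNA share of the animal. Rhesus Leydig-like cells held 36.2 times that number in animal 1 and 43.8 times in animal 2. In the other rhesus classes the ratio was between 0.0346 and 0.710, apart from unnamed cluster 4 of animal 1 at 1.44 (0.188 in animal 2). Sertoli-like cells held 2459 UMIs where 9318 would stand in pure free RNA in animal 1, and 485 against 4069 in animal 2, or 0.264 and 0.119 times. The share of free RNA in a cell was not estimated, so a ratio under 1 does not tell free RNA from a low level in the cells themselves, and no expression is read from it. Baboon stroma-like cells held 1.90 and 3.16 times the free RNA number, and baboon Sertoli-like cells 0.0167 and 0.0490 times (32 UMIs against 1920, and 101 against 2062).

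**Figure D3:**
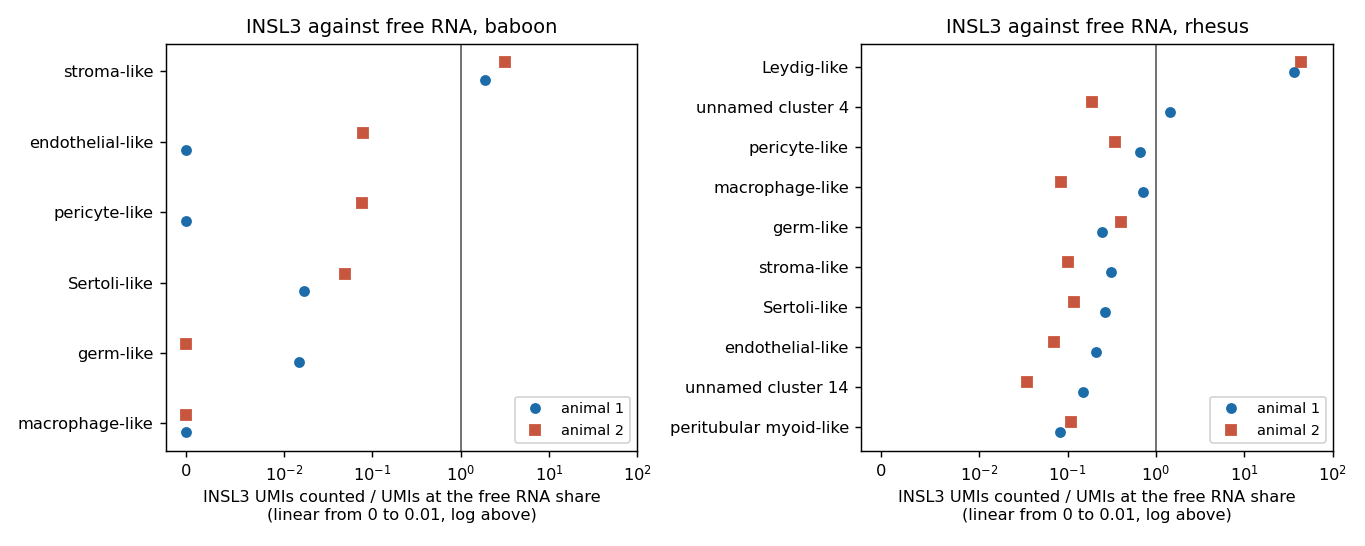
INSL3 UMIs counted in a class divided by the UMIs that the same total would hold at the free RNA share of the animal (horizontal axis, linear from 0 to 0.01 and logarithmic above), with 1 point for each animal and a line at 1. Rhesus Leydig-like cells (36.2 and 43.8) and baboon stroma-like cells (1.90 and 3.16) lie to the right of the line in both animals, and unnamed cluster 4 in rhesus animal 1 alone (1.44).

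INSL3 was also set against other genes of the Leydig marker list, as the UMIs of INSL3 for each UMI of the other gene. In rhesus animal 1, INSL3 had 19.2 UMIs for each UMI of CYP17A1 (the enzyme that turns progestins into androgens) in Leydig-like cells, 40.7 in free RNA, 38.4 in Sertoli-like cells and 66.4 in stroma-like cells. In rhesus animal 2 the same ratio was 279 in Leydig-like cells, 341 in free RNA, 242 in Sertoli-like cells and 300 in stroma-like cells. In the same order these rested on 85, 10, 2 and 2 CYP17A1 UMIs, too few outside the Leydig-like cells to compare the ratios. The ratios of the animals overlapped over all classes, since animal 1 reached 97.6 in unnamed cluster 4 and animal 2 had 77.0 in endothelial-like and 40.3 in germ-like cells, on 1 and 3 CYP17A1 UMIs. The level of CYP17A1 itself differed between the animals, with 2000 CPM in the Leydig-like cells of animal 1 and 79.9 CPM in those of animal 2. The ratio of INSL3 to STAR, the carrier of cholesterol into mitochondria, was spread more widely, with 110 and 37.0 in Leydig-like cells, 11.1 and 5.06 in free RNA and 3.41 and 0.663 in Sertoli-like cells. For CYP11A1 the ratios in animal 1 were 1099 in Leydig-like cells, 70.9 in free RNA and 12.8 in Sertoli-like cells, and for HSD3B1 they were 117, 25.2 and 4.97. These genes were also counted outside the Leydig-like cells. In Sertoli-like cells STAR stood at 82.2 and 91.5 CPM and HSD3B1 at 56.4 and 56.6 CPM. The ratios therefore vary with the other gene as well, and the source of INSL3 was not tested. In the baboon, INSL3 had 6.38 and 3.92 UMIs for each UMI of STAR in stroma-like cells and 3.84 and 3.67 in free RNA, but 0.0808 and 0.301 in Sertoli-like cells.

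Genes of the steroid pathway were next described by the INSL3 count of the cell, with both animals summed and no test, since the cells were split by a measured value and the groups differ in depth. Of the 736 rhesus Leydig-like cells, 448 had 10 or more INSL3 UMIs, 66 had 1 to 9 and 222 had 0, with median depths of 3685, 1359.5 and 1225.5 UMIs. CYP17A1 stood at 1363 CPM in the first of these, 32.2 in the next and 0 in the cells without INSL3. HSD3B1, the dehydrogenase that makes progesterone, stood at 240, 56.3 and 12.5 CPM, and STAR at 555, 177 and 87.8 CPM. CYP11A1, which cleaves the side chain of cholesterol, stood at 54.9, 16.1 and 3.13 CPM. FDX1, an electron carrier of that enzyme, was nearly level at 119, 121 and 119 CPM. The split held in each animal for CYP17A1, with 2198, 115 and 0 CPM in animal 1 and 116, 0 and 0 CPM in animal 2. Animal 1 gave 294 of the 448 cells with 10 or more INSL3 UMIs, and animal 2 gave 176 of the 222 cells at 0. The summed levels thus also mix the animals, which differed in HSD3B1 at 10 or more INSL3 UMIs (356 and 67.1 CPM).

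In the baboon stroma-like cells, 31 cells had 10 or more INSL3 UMIs, 41 had 1 to 9 and 4621 had 0, with median depths of 4327, 2188 and 1601 UMIs. STAR stood at 1173, 145 and 18.8 CPM. LHCGR, the receptor for luteinizing hormone, stood at 124, 36.3 and 1.07 CPM, and NR5A1, a nuclear receptor of steroid-producing cells, at 124, 18.2 and 27.8 CPM. All 17 LHCGR UMIs of the 31 cells were from animal 2, whose 24 cells had 146 CPM, while the 7 cells of animal 1 had 0. NR2F2, a nuclear receptor of interstitial cells, was spread more evenly, at 831, 626 and 668 CPM. The few baboon cells with much INSL3 thus also had more STAR than the rest of their class, in animal 1 (380 against 15.3 CPM in cells without INSL3) and in animal 2 (1317 against 20.4 CPM).

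**Figure D4:**
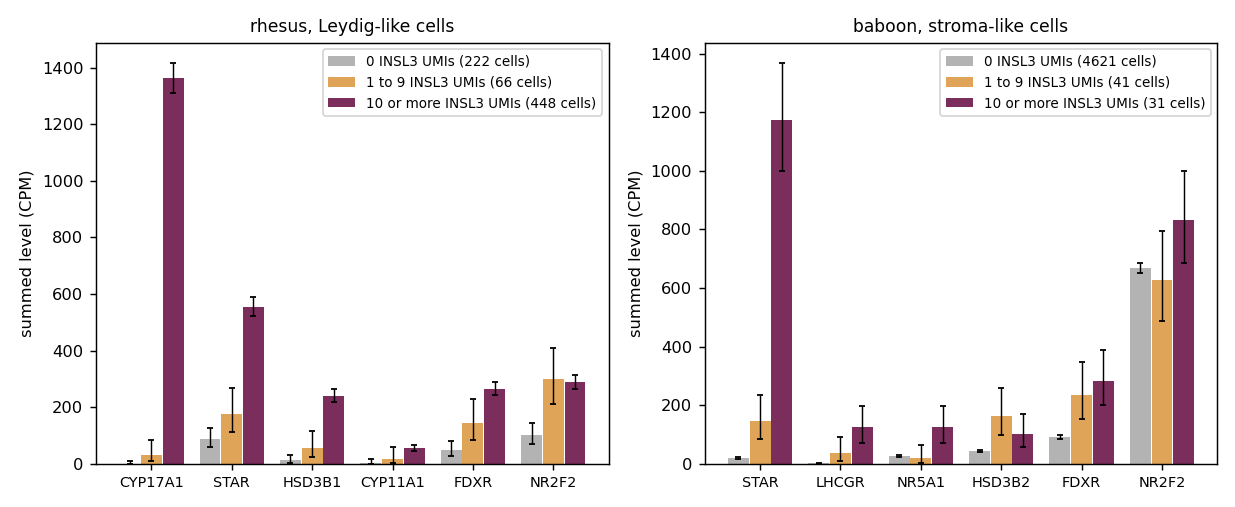
Summed level (vertical axis, CPM, bars from 0, with exact 95% Poisson intervals for counting error) of genes of the steroid pathway and of NR2F2 in cells with 0, 1 to 9 and 10 or more INSL3 UMIs, for the rhesus Leydig-like cells and the baboon stroma-like cells, both animals summed. STAR is highest in the cells with 10 or more INSL3 UMIs in both species, at 555 CPM in the rhesus monkeys and 1173 CPM in the baboons.

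The genes known to act on the INSL3 promoter formed a list of 12. In the rhesus Leydig-like cells 9 were tested, and 2 were higher and 0 lower by the test of edgeR, against the background of 4.27% of all genes. NR2F2 was higher by 1.63 ± 0.24 (SE) on the log2 scale (237 and 294 CPM, adjusted p = 0.000959), and MAMLD1, a coactivator with a role in male genital development, by 1.69 ± 0.40 (34.2 and 13.2 CPM, adjusted p = 0.0226). The median difference of the 9 genes was 0.19, against 0.06 over all genes tested. NR5A1 had too few UMIs for the test, with 3.33 and 0 CPM. The background in the baboon stroma-like cells was 11.9% of all genes, and larger with the animal as a block. There 0 genes of the list were lower (1 with the block). Among those higher were NR2F2 (484 and 756 CPM, a difference of 3.04 ± 0.37, adjusted p = 0.000386), NR0B1 (69.1 and 98.0 CPM, 2.65 ± 0.50, adjusted p = 0.00550) and JUN (4878 and 11258 CPM, 1.82 ± 0.40, adjusted p = 0.0129). Of these, NR0B1 is a repressor of steroid-cell genes and JUN an immediate-early factor, and NR2F2 was also a marker on the stroma list that named the class. Within the class, NR0B1 and JUN were lower in the cells with INSL3, with both animals summed and no test. At 10 or more, 1 to 9 and 0 INSL3 UMIs, NR0B1 stood at 14.6, 45.4 and 90.7 CPM, of which the lower values rest on 2 and 5 UMIs. JUN stood at 4299, 5447 and 9384 CPM. Cluster 1 gave 1280 (animal 1) and 2120 (animal 2) of the cells at 0, and no cell with 10 or more. These values thus also set cluster 7 against cluster 1.

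The 8 genes of the Leydig list that were found in the rhesus monkey were all tested, and 6 were higher in the Leydig-like cells (background 3.87% of all genes higher), which is what named the class and so is a description. CYP17A1 differed by 9.15 ± 0.99, HSD3B1 by 5.01 ± 0.79 (327 and 51.7 CPM), CYP11A1 by 4.59 ± 0.62 (35.0 and 57.3 CPM), STAR by 3.24 ± 0.31 (348 and 604 CPM), FDXR by 1.95 ± 0.35 and FDX1 by 1.07 ± 0.23 on the log2 scale. These are differences from the mean of the other classes and not from each class. Sertoli-like cells had 56.4 and 56.6 CPM of HSD3B1, in animal 2 no less than the Leydig-like cells. Their CYP11A1 level was 21.9 and 19.4 CPM. The remaining genes of the list, HSD17B3 and SCARB1, did not pass. HSD17B3 was nearly absent from the Leydig-like cells (0 and 1.88 CPM) and stood at 29.7 and 99.8 CPM in the Sertoli-like cells. In the baboon stroma-like cells, where 8.53% of all genes were higher, 1 of 6 tested genes passed, which was STAR (18.4 and 48.0 CPM, a difference of 5.16 ± 0.66, adjusted p = 0.000732 by edgeR). Baboon STAR stood at 12.7 and 9.68 CPM in Sertoli-like cells and at 16.1 and 16.2 CPM in free RNA, close to the stroma-like level of animal 1. Smaller classes were near 0, such as the germ-like cells (0 and 1.22 CPM), so the fitted difference is no bound on the fold. CYP11A1, CYP17A1 and HSD3B1 were not found by symbol in the baboon and HSD3B2 and LHCGR not in the rhesus monkey, and were not analysed here in those species.

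The genes whose pattern over the sums per animal and class was most like that of INSL3 were ranked by the Pearson correlation of log2(CPM + 10), as a description without a test, since sums of 1 animal share their libraries. In the rhesus monkey (18 sums) these were CYP17A1 (r = 0.884), STC1, a secreted glycoprotein (0.876), BHMT2, a methyltransferase (0.871), PROK1, the prokineticin first named for endocrine glands (0.861), and ENSMMUG00000029032 (0.861). In the baboon (12 sums) they were LOC103876325 (0.993), LOC116271019 (0.986), EDIL3, an adhesion protein of the matrix (0.984), LOC101017435 (0.984) and SMIM41 (0.984). All had their highest level in the class where INSL3 was highest, and the ranking rests largely on that class. With a pseudocount of 1 CPM, 3 of the 5 genes stayed among the first 5 in each species, and with Spearman's correlation 1 of 5 (CYP17A1 in the rhesus monkey and LOC101017435 in the baboon).

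RXFP1, the relaxin receptor, was barely detected in either species. Baboon libraries 1A, 1B and 2 held 6, 2 and 8 UMIs over all barcodes, and rhesus libraries 1, 2A and 2B held 5, 2 and 3. Of the 14 UMIs in baboon cells, 11 were in germ-like cells (6 in animal 1 and 5 in animal 2), 2 in Sertoli-like cells and 1 in a pericyte-like cell. Of the 9 UMIs in rhesus cells, 6 were in germ-like cells (4 in animal 1 and 2 in animal 2, both from library 2B), 2 in endothelial-like cells and 1 in a stroma-like cell. No cell had more than 1 UMI, and the free RNA held 0 UMIs in the baboon libraries and 1 UMI in rhesus library 2A (0.315 CPM).

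The germ-like cells therefore had the highest RXFP1 level in both species. It was 5.44 and 3.04 CPM in the baboons (4.24 ± 1.70, SD, n = 2) and 3.00 and 3.42 CPM in the rhesus monkeys (3.21 ± 0.293). The baboon germ-like cells overlapped with the pericyte-like cells (0 and 4.56 CPM, from the 1 UMI), and the rhesus germ-like cells lay above the endothelial-like cells (0 and 0.929 CPM). In small classes with 0 UMIs the limit lay above these levels, such as 30.7 and 13.6 CPM in the baboon macrophage-like cells and 12.2 and 14.2 CPM in the rhesus ones. The germ-like cells held 78.6% of the RXFP1 UMIs of baboon cells (exact 95% interval 49.2 to 95.3) and 66.7% in the rhesus monkey (29.9 to 92.5), with 3.46% and 3.93% of all UMIs. RXFP1 UMIs were seen in 4.11% and 3.14% of the baboon germ-like cells and 0.820% and 2.22% of the rhesus ones. The cells with a UMI were deep, with medians of 13632 and 18470 UMIs against 5980 and 6955 for the baboon class, and 7227 and 12610 against 1424 and 1658 for the rhesus class. DDX4, the germ cell helicase, was counted in 4 of 6 and 5 of 5 of these cells in the baboons and in 1 of 4 and 0 of 2 in the rhesus monkeys.

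RXFP1 did not pass the filter on low counts and so was not tested with the other genes. Without that filter, the germ-like cells differed from the other classes by 5.86 ± 1.63 (SE) on the log2 scale in the baboon (adjusted p = 0.00235) and by 5.31 ± 1.71 in the rhesus monkey (adjusted p = 0.00925) by the test of edgeR. These values rest on 11 and 6 UMIs, and the fits hold classes at 0. RXFP1 had been planned for the stroma-like cells, and the germ-like comparison for RXFP2. The p-values thus restate where the few UMIs lay and are no independent support for the direction. In the baboon the unfiltered germ-like fit also called more genes than the filtered one (counts in the closing section). The fit without the filter gave a difference of -0.08 in the rhesus stroma-like cells, on 1 UMI, too few to measure a difference. In the baboon stroma-like cells the count was 0. With each cell thinned to 1000 UMIs, the baboon germ-like level was 0, so a difference was not detectable at that depth.

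RXFP2, the INSL3 receptor, was counted 0 times in the 174340387 UMIs of all barcodes of the 6 libraries. A count of 0 allows up to 3 UMIs, or 0.0172 CPM over all libraries, 0.0307 CPM in the baboon and 0.0392 CPM in the rhesus monkey (counting error only). For the free RNA of a single library the limit was 0.822 to 1.66 CPM. For single classes the limits were wider, with 2.72 and 1.83 CPM in the baboon germ-like cells, 2.25 and 5.12 CPM in the rhesus germ-like cells and 2.50 and 2.82 CPM in the rhesus Leydig-like cells. No class of cells could thus be compared, and RXFP2 was not detectable at this depth in germ-like, Leydig-like or any other cells. The RefSeq model of the rhesus gene ends at the stop codon, and whether reads of a longer 3′ end were left uncounted was not tested.

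**Figure D5:**
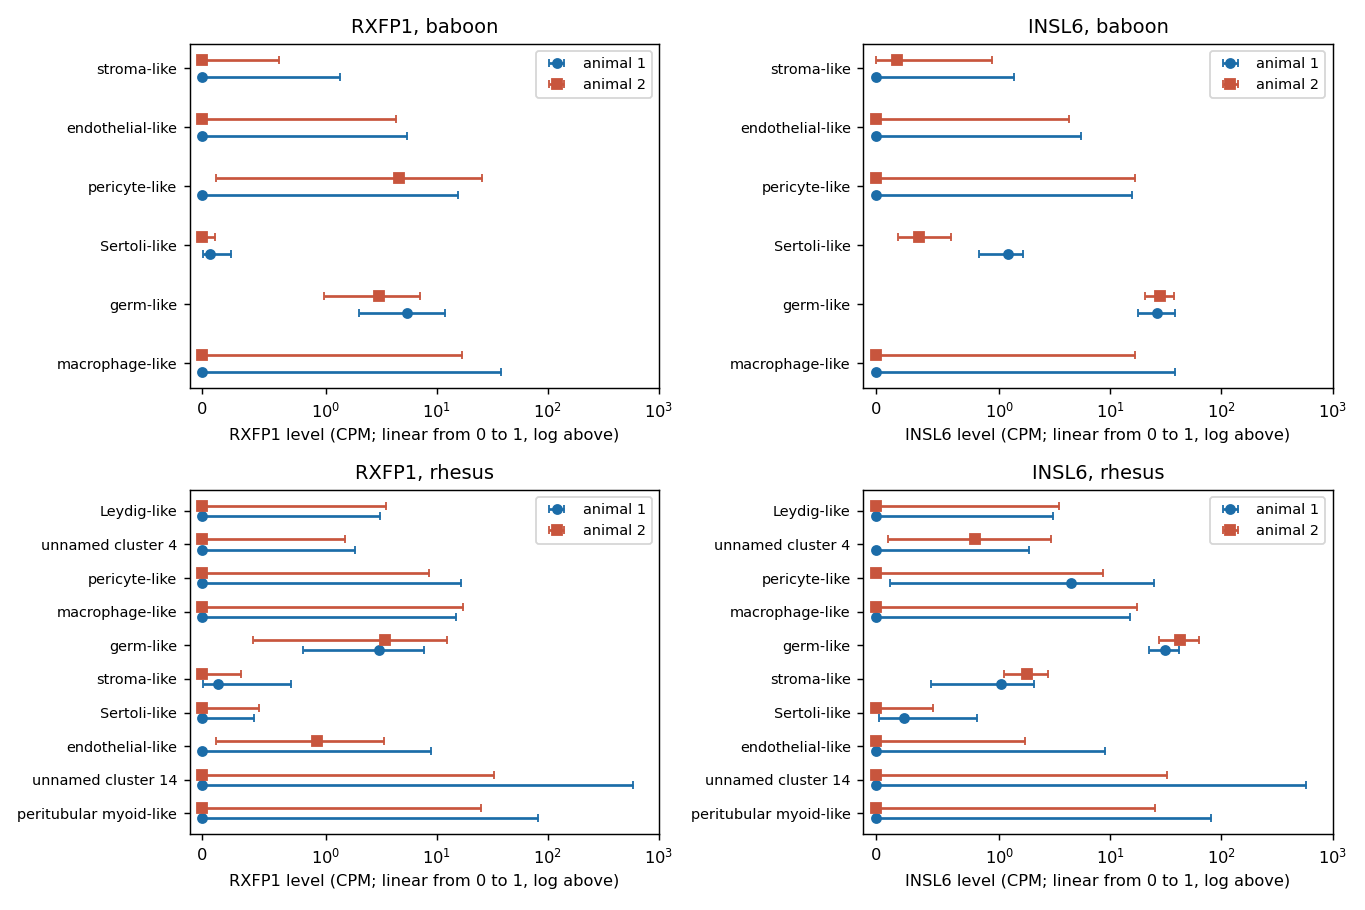
Level of RXFP1 and INSL6 (horizontal axis, CPM, linear from 0 to 1 and logarithmic above) by class of cells and animal, with exact 95% Poisson intervals for counting error. INSL6 in germ-like cells (26.3 and 28.0 CPM in the baboons, 30.8 and 42.7 in the rhesus monkeys) stands above the value of every other class, and the RXFP1 intervals are wide, on 14 baboon and 9 rhesus UMIs in cells.

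Of the other 9 genes of the relaxin family, 7 were found by symbol in the rhesus monkey and 6 in the baboon. Those not found were not analysed here in that species. Only INSL6 had enough UMIs for the test. INSL6, a family member known from male germ cells, had 29 and 46 UMIs in the baboon germ-like cells (26.3 and 28.0 CPM), of 125 UMIs in all baboon cells. In the rhesus germ-like cells it had 41 and 25 UMIs (30.8 and 42.7 CPM), of 100. The other classes reached at most 1.19 CPM in the baboon and 4.46 CPM in the rhesus monkey, so the values of the animals did not overlap in either species. At these levels INSL6 passed the filter on low counts through the germ-like sums alone. The p-values that follow are therefore no independent support for the direction. The germ-like cells were higher by 8.65 ± 1.06 in the baboon (adjusted p = 0.000402) and 7.59 ± 0.87 in the rhesus monkey (adjusted p = 6.45e-05) by edgeR, in comparisons where 33.1% of 12374 baboon genes (23.5% higher and 9.61% lower) and 37.9% of 10770 rhesus genes (25.8% higher and 12.1% lower) passed. INSL6 was counted in 15.8% and 18.9% of the baboon germ-like cells and in 7.58% and 15.6% of the rhesus ones.

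Among the other family genes found by symbol, counts were close to none. Of 8 rhesus UMIs of RLN2, a relaxin, 4 and 3 were in the germ-like cells of animals 1 and 2 (3.00 and 5.12 CPM), and of 8 of INSL5, the gut hormone of the family, 3 and 2 were (2.25 and 3.42 CPM). All 4 baboon UMIs of INSL5 were in germ-like cells of animal 2. RLN3, the relaxin of the brain, had 10 rhesus UMIs spread over several classes, and RXFP4, the receptor of INSL5, had 15 baboon UMIs, 13 of them in Sertoli-like cells. RXFP3, the receptor of RLN3, had 3 baboon UMIs and C1QTNF8, a proposed ligand of RXFP1, 1 rhesus UMI, while INSL4 had 0. In 3 of the 9 rhesus cells with an RXFP1 UMI an INSL3 UMI was also counted, against 3699 of all 26473 rhesus cells. Of the 3, 1 was the stroma-like cell, with 25372 UMIs and DDX4 counted. Cells with RXFP1 were deep and free RNA held INSL3, so no shared expression is read from this. RXFP1 and INSL6 were counted together in 2 and 5 of the baboon germ-like cells with RXFP1 and in 0 and 2 of the rhesus ones.

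The genes that couple these receptors to cyclic AMP formed a list of 25 G protein subunits, adenylyl cyclases, protein kinase A subunits, CREB factors and phosphodiesterases. GNAS, the stimulatory subunit, was not found by symbol in either species and was not analysed here. In the rhesus Leydig-like cells 18 were tested, and 2 were higher and 1 lower against the background of 4.27%, with a median of -0.12 against 0.06 over all genes. The cyclase ADCY3 was higher by 1.76 ± 0.36 (65.0 and 39.5 CPM, adjusted p = 0.00989) and the kinase subunit PRKAR2B by 3.19 ± 0.67 (15.0 and 13.2 CPM, adjusted p = 0.0141). CREM, a transcription factor that answers to cyclic AMP, was lower, by -1.38 ± 0.31 (16.7 and 22.6 CPM, adjusted p = 0.0172 by edgeR). With the animal as a block, 3 were higher and 1 lower in the baboon stroma-like cells, where more of all genes passed. Without the block, 2 of 21 tested were higher and 0 lower against the background of 11.9%, with a median of -0.15 against 0.07. These were the inhibitory subunit GNAI1 (67.2 and 77.1 CPM, 1.05 ± 0.23, adjusted p = 0.0113) and ADCY3 (16.2 and 18.2 CPM, 2.98 ± 0.66, adjusted p = 0.0150).

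In the germ-like cells, where the RXFP1 UMIs lay, genes of the list were called in both directions. In the rhesus monkey 6 of 18 were higher (GNAI3, GNAO1, PRKAR2A, PRKAR2B, CREM and PDE4A) and 4 lower (GNAI2, ADCY3, PRKACA and PRKACB), against a background of 37.9% of all genes. CREM stood at 308 and 258 CPM there, a difference of 2.27 ± 0.21 (adjusted p = 2.61e-06 by edgeR). In the baboon 3 of 21 were higher (GNAO1, PDE4A and PDE4D) and 3 lower (GNAI2, PRKACA and PRKACB), against a background of 33.1%, and with the animal as a block the counts were 7 and 4. Of the promoter list, 3 of 9 were lower in the rhesus germ-like cells (NR2F2, JUN and KLF6) and 2 of 11 in the baboon ones (NR2F2 and JUN), and 0 were higher. With the animal as a block, 1 was higher and 6 lower in the rhesus germ-like cells, and 0 were higher and 4 lower in the baboon ones. The share of all genes passing with the block is not given here for the germ-like cells. Their counts with the block are thus not read against a background. STAR was also higher in the rhesus germ-like cells than in the mean of the other classes, by 1.70 ± 0.34 (287 and 278 CPM, adjusted p = 0.00123 by edgeR).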

How the data were processed

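The libraries were aligned by the authors to Panubis1.0 (baboon) or Mmul_10 (rhesus) with Cell Ranger 3.1.0, per the submitters' processing notes, which also name Seurat 3.2.3. As deposited, the files hold raw UMI counts, in whole numbers, for every barcode. Depth was 16875294 to 49803025 UMIs a library, and intervals and limits cover counting error only.

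Cells were called with a rebuilt Cell Ranger rule (target 5000, percentile 99, divisor 10, then barcodes of at least 500 UMIs against free RNA at an adjusted p of 0.01) and needed 200 genes. Doublets were marked, 4.45% to 8.94% of a library, and kept. Libraries were normalized with sctransform 0.4.2, integrated and clustered in Seurat 5.3.0 (2999 features, the members removed, 30 components, resolution 0.5, R 4.3.3). UMIs were summed per animal and class, for classes with 10 cells in each animal (rhesus 18 sums, 9 residual degrees of freedom, cluster 14 left out; baboon 12 sums, 6), and tested with edgeR 4.0.16 (TMM, filterByExpr). The SE given with an edgeR difference is the size of the difference over the square root of the F value of its test. For a small difference or few UMIs it is no measure of precision. Alternatives used DESeq2 1.42.0 and the settings in the closing section. On simulated data, 128 of 200 genes changed by 2 on the log2 scale were found for the rhesus Leydig-like cells (64%) and 140 for the baboon stroma-like cells (70%). Of the unchanged genes, 8 and 5 were called. The simulated sums were independent, with no animal effect and with unchanged genes level over all classes. These rates may thus not hold for the paired sums used here.

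The sums of the classes are paired by the animal they come from, and the animals' differences correlated by 0.11 to 0.66 between baboon classes and by 0.08 to 0.78 between rhesus classes. Named genes are the members, the fixed lists (relaxin family, cyclic AMP coupling, promoter regulators, cell type markers) and the 5 genes most like a member with at least 30 UMIs in cells. The members and lists were chosen with earlier results of these data known. The planned baboon comparison of Leydig-like cells used stroma-like cells instead, and RXFP1 and RXFP2 had too few UMIs for their planned tests. Python 3.11.15 with pandas 2.3.3, numpy 2.4.6 and scipy 1.17.1 was used for the rest. One gene of the promoter list is not reported here. Human and mouse data were not analysed here.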

Additional observations from a re-analysis of the deposited data

How the results depend on the processing

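INSL3 was higher in the rhesus Leydig-like cells, by 6.93 to 8.09 on the log2 scale, and in the baboon stroma-like cells, by 6.88 to 11.54, under every alternative with a test, and no result reversed. Leaving out 1 library in turn gave 7.44 to 9.05 in the rhesus monkey and 7.83 to 10.4 in the baboon, where the highest values, without rhesus library 1 and without baboon library 2, leave 1 animal and so have no test. The counts of genes called moved more. With the animal as a replicate block, the paired fit, they were 906 (rhesus Leydig-like) and 3039 (baboon stroma-like), and no call of INSL3 or INSL6 changed. With no filter on low counts they were 819, 2237 and, in baboon germ-like cells, 6368. With cells thinned to 1000 UMIs they were 183 (rhesus Leydig-like), 420 (baboon stroma-like), 1467 (rhesus germ-like) and 922 (baboon germ-like). Libraries as separate sums gave 1130 for the rhesus Leydig-like cells, and baboon stroma-like cells had 2371 calls with DESeq2 and 572 with barcodes above the UMI cutoff alone. Leaving out 1 library in turn gave 396 to 411 (rhesus Leydig-like), 1156 to 1305 (baboon stroma-like), 3344 to 3435 (rhesus germ-like) and 2586 to 3693 calls (baboon germ-like, lowest without library 1A). The causes of these moves were not tested.

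Levels of INSL3 by class stayed within 1 SD in 115 of 124 alternatives, those of RXFP1 in 121 and those of RXFP2, at 0, in 124. Without library 2A the rhesus germ-like INSL3 level was 144 CPM in place of 233 CPM, and that of RXFP1 5.50 CPM in place of 3.21 CPM. Without library 2B, RXFP1 in these cells was 3.00 CPM in animal 1 and 0 in animal 2. The tests planned for RXFP2 could not be run at 0 UMIs, and that of RXFP1 in stroma-like cells was run only without the filter. With 2 animals a species, the spread between animals is poorly known, and the part of free RNA in the INSL3 of the other classes was not tested. At resolution 0.8 a rhesus cluster of 388 cells led by INSL3 and CYP17A1 stayed unnamed, beside 349 Leydig-like cells.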
